A study of Mus musculus with 31 samples.

Results

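The Hox genes encode homeodomain transcription factors and were followed here on 31 Affymetrix mouse expression arrays, 1 array per sample. Every probe set whose single annotated symbol was a Hoxa, Hoxb, Hoxc or Hoxd gene with a number was taken, with no choice by intensity. This gave 48 of the 45101 probe sets on the array. They measure 33 of the 18194 genes with a probe set of 1 symbol, and 33 of the 39 Hox genes that RefSeq lists in the mouse. The other 6 were not analysed here. A further 3 probe sets with several symbols and 5 with an antisense symbol lay outside the rule.

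The series compares mouse CD4+ T cells sorted from spleens and lymph nodes, to learn in what respects regulatory T cells (Treg) made in culture match those of the animal, and what the transcription factor Foxp3 contributes. Bicistronic Foxp3/EGFP mice, in which EGFP reports Foxp3, gave conventional T cells (CD4+Foxp3-EGFP-, 3 arrays) and natural Treg (CD4+Foxp3+EGFP+, 4 arrays), neither of them activated. From the same mice came activated T cells, which are CD4+Foxp3-EGFP- cells stimulated with antibodies to CD3 and CD28 and no TGF-beta (4 arrays), and activated natural Treg, stimulated with both antibodies and TGF-beta (3 arrays). Induced Treg were CD4+Foxp3-EGFP- cells given both antibodies and TGF-beta for 3 days and sorted as CD4+Foxp3+EGFP+ (5 arrays), and failed induced Treg were the EGFP- cells of those cultures (3 arrays). Mice with the mutant Foxp3deltaEGFP allele gave natural Foxp3delta cells from heterozygous females (CD4+Foxp3deltaEGFP+, 2 arrays) and induced Foxp3delta cells, treated for 3 days like the induced Treg and sorted as EGFP+ (3 arrays). The last 2 groups were induced Treg and induced Foxp3delta cells cultured with IL-2 at 100 units/ml for 1 further week (2 arrays each). Samples are numbered within groups, with no word on whether each had its own animal or culture. The p-values therefore cover the spread between these particular samples, possibly a technical one. The number of arrays limits the precision.

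Hox genes lie in clusters, named Hoxa to Hoxd, and genes with the same number in different clusters are paralogs. During development they are switched on in the order in which they lie along the chromosome, so that low numbers are used from the hindbrain backwards and the highest numbers only near the tail end of the body. Neurons and glia of the hindbrain and spinal cord keep much of this pattern in the adult, whereas the forebrain and midbrain lack it. Hox genes are also used outside the nervous system, among others in blood stem cells, kidney, gut and skeleton. How far up the paralog numbers Hox transcripts were found is the question put to the arrays here.

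The question arose because the arrays went against the tissue named in their labels. All 13 measured genes of a nervous tissue list were above background on all 31 arrays, where background is defined in the next paragraph. Mbp, a protein of myelin, had a median intensity of 20503, and Snap25, a protein of synapses, 9947. Of 14 measured T cell genes, 4 (Cd3e, Cd4, Lat and Zap70) were above background on all arrays, with medians of 33.7, 18.3, 24.4 and 118. By probe set the counts were 39 of 40 for the nervous tissue list and 6 of 23 for the T cell list, against 65.4% of all probe sets. Foxp3, which defines the groups, had a median of 12.7 and exceeded background on 17 of the 31 arrays. The summed T cell list ran from 312 to 383 over the arrays and the summed nervous tissue list from 118351 to 133518. Groups are therefore called by their labels throughout, as "arrays labelled conventional T" and so on.

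An intensity was read against 27 control probe sets for Bacillus genes. Their median lay between 7.90 and 9.82 over the arrays. Their 95th percentile, which served as the background of an array, lay between 10.5 and 14.9, and the highest control between 17.5 and 39.0. Values were brought to 1 common distribution (quantile normalised) and are given in intensity units. A probe set counted as above background when it exceeded this level on all 31 arrays. Probe sets bind their targets with different strength, so each was set against background and not against another probe set. The percentile of a probe set among all probe sets of an array carries that same limit and is given as a description.

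Of the 48 Hox probe sets, 36 were above background on all 31 arrays, for 26 of 33 genes. Over all 45037 probe sets that are no controls the share was 65.4%. The Hox share of 75.0% was near that background, so the count as a whole says little. The order along the clusters was uneven. Paralog 1 had 1 of 2 probe sets above background, paralogs 2 to 4 had 11 of 14, paralogs 5 to 8 had 14 of 15, and paralogs 9 to 11 had 10 of 11. Paralogs 12 and 13 had 0 of 6, over 5 genes, and with that count no test was run. This rests on asking for all 31 arrays, as probe sets of Hoxd13, Hoxa13 and Hoxc13 exceeded background on 26, 24 and 19. No probe set of paralogs 12 and 13 reached the highest control on any array. For paralogs 2 to 11 together the count was 35 of 40 probe sets and 25 of 26 genes.

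**Figure D1:**
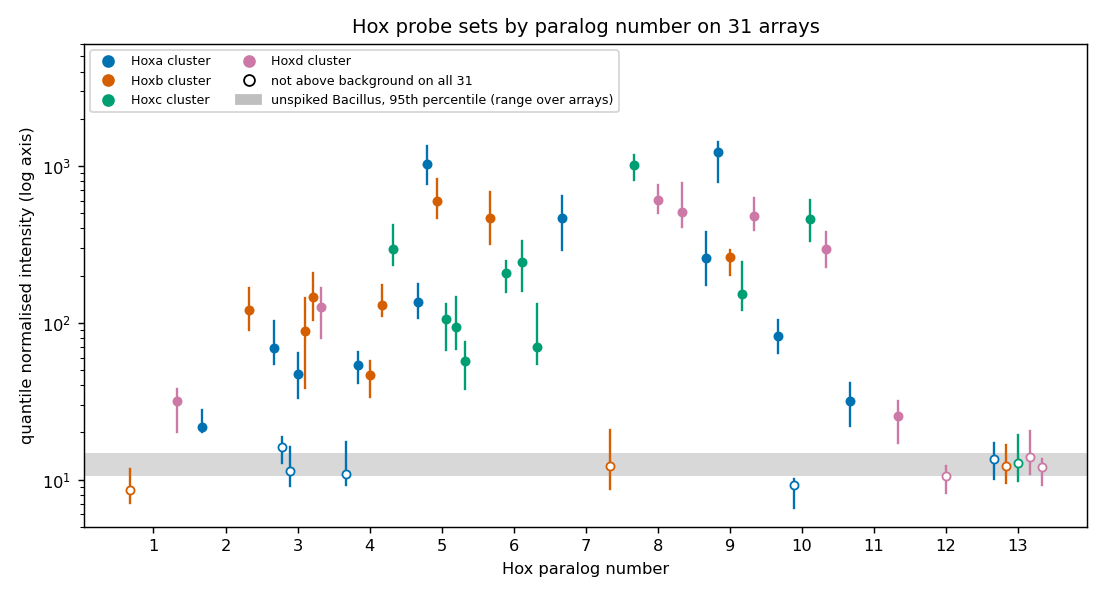
Median intensity (log axis, quantile normalised) of each of the 48 Hox probe sets by paralog number, with a bar from the lowest to the highest of 31 arrays and colours for the clusters. The grey band is the range over arrays of the background, 10.5 to 14.9; filled points, found from paralog 1 to 11, were above it on all 31 arrays, and the 6 open points at 12 and 13 lie in or near it.

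The HoxD cluster on chromosome 2 had measured neighbours from Hoxd8 to Hoxd13, and detection on all 31 arrays ended between Hoxd11 and Hoxd12. This end depended on the threshold. Against the highest control it lay between Hoxd10 and Hoxd11 (above on 31 and 13 arrays), and a probe set of Hoxd13 exceeded background on 26 arrays. Because either end lies among these neighbours, the promoter windows of Hoxd10 to Hoxd13 are printed, from RefSeq (build GRCm38.p6). Each runs from 250 bases before to 50 after the start of the gene, 5′ to 3′ on the + strand, with every CG dinucleotide in capitals. Hoxd10 is at chr2:74691641-74691940, Hoxd11 at chr2:74682073-74682372 (of its 2 listed starts, the one nearer to Hoxd10), Hoxd12 at chr2:74674763-74675062 and Hoxd13 at chr2:74667975-74668274.
Hoxd10: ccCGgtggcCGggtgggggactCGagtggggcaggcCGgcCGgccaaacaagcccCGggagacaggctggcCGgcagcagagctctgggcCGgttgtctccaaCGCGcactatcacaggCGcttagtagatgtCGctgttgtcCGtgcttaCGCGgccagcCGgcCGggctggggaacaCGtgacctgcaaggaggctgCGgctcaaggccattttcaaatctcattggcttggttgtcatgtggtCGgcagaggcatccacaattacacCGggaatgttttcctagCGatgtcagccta
Hoxd11: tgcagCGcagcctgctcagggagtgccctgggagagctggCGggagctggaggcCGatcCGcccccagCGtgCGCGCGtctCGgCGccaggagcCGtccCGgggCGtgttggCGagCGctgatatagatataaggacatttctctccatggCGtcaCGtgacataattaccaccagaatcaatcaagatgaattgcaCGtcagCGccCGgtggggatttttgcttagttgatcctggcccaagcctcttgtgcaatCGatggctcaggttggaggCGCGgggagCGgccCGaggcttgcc
Hoxd12: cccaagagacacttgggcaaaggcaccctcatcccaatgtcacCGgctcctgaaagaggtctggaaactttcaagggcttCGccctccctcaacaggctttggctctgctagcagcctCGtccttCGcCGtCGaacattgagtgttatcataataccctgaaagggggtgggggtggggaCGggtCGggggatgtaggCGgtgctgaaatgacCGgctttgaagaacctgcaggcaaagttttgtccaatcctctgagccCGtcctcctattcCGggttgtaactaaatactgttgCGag
Hoxd13: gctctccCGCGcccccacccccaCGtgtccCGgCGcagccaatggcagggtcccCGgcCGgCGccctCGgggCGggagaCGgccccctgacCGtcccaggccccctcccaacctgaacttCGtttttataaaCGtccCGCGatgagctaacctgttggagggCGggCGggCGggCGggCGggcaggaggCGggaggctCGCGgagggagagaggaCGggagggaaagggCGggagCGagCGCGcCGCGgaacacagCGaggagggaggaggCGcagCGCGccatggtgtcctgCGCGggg

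CG dinucleotides are the sites of DNA methylation. The windows of Hoxd10, Hoxd11, Hoxd12 and Hoxd13 held 22, 25, 13 and 37 of them. At least as many were found in 23.1%, 18.4%, 37.9% and 5.58% of the 32851 mouse promoter windows, whose median was 7. A second listed start of Hoxd11 (chr2:74679308-74679607) held 4. The 17 windows of 15 Hox genes above background had a median of 15 (range 4 to 29), and those of Hoxb1, Hoxd12, Hoxd13 and Hoxa13 25 (range 10 to 45), with no test of the difference. In all, 24 windows of 22 Hox genes were matched by symbol. The motif TGATTNAT, a site for Hox and Pbx proteins, was found on either strand in 2 of them (Hoxa2 and Hoxd11) and in 3.22% of all windows. AGGTCA, the core motif of nuclear receptors such as the retinoic acid receptors, was in 7 of 24 and in 16.3% of all. GGGCGG, the GC box, was in 10 of 24 and in 35.7%, and TATAAA in 4 of 24 and in 13.6%. A match to these letters is a description and not a binding site.

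Hoxd10, a gene of motor neuron and limb patterning at lumbar level, read 254, 361 and 302 on the 3 arrays labelled conventional T, 251, 324, 232 and 296 on natural Treg, and 297, 274, 378 and 295 on activated T. It read 232, 289, 280, 228 and 325 on induced Treg, and over all 31 arrays between 228 and 378 with a median of 295. No array came near the highest control, 39.0. Hoxd11, its neighbour and a partner of Hoxa11 in forearm and kidney development, read 24.8, 23.7 and 26.0 on conventional T, 27.5, 25.3, 27.5 and 22.2 on natural Treg, and 27.6, 31, 26.1 and 23.5 on activated T. All 31 arrays were above background for Hoxd11 (17.2 to 31.9), and 13 were above the highest control.

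Hoxd12, a limb and digit gene, read 10.6, 9.16 and 11.5 on conventional T, 9.34, 11.9, 11.1 and 11.6 on natural Treg, and 10.9, 11.2, 10.2 and 10.5 on activated T. It exceeded background on 5 of 31 arrays and spanned 8.20 to 12.2. Hoxd13, mutated in synpolydactyly and used in the tail, digits and genital tubercle, had a pair of probe sets. The brighter read 12.9, 15.4 and 14 on conventional T, 16.4, 12.9, 15.3 and 16.5 on natural Treg, and 13.5, 15.2, 20.0 and 10.8 on activated T. It exceeded background on 26 of 31 arrays, and the other on 10. High and low arrays of Hoxd13 were mixed within every one of these groups, and the groups overlapped.

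In the other clusters, too, detection on all arrays stopped short of paralog 13. The measured numbers have gaps there, so each end is only bracketed. In HoxA (chromosome 6), Hoxa11 read 21.8 to 41.0 (median 31.6) and was above background on all arrays, while Hoxa13, a gene of the hindgut, genital tract and limb tip, had a median of 13.5 and was above it on 24. In HoxB (chromosome 11), Hoxb9 read 201 to 290 (median 262) and its next measured neighbour Hoxb13, a gene of the tail bud and prostate, had a median of 12.1 and was above background on 14 arrays. In HoxC (chromosome 15), Hoxc10, which marks lumbar motor columns, read 332 to 608 (median 456), and Hoxc13, a gene of hair and nails, had a median of 12.7 and was above background on 19. Hoxc11 and Hoxc12 lie between them and were not measured. Nearest to background on its upper side were Hoxd11 (median 25.3) and Hoxa2 (21.8), and on its lower side a probe set of Hoxa3 (median 16.2, above on 30 arrays) and the brighter one of Hoxd13 (14).

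At the other end, Hoxb1, which specifies rhombomere 4 of the hindbrain, read 7.10 to 11.8 (median 8.59), at 1.02 times the median of the controls, and exceeded background on 1 array. Hoxd1, a gene of pain-sensing neurons, read 20.0 to 37.7 (median 31.7) and was above background on all arrays. Hoxa2, which patterns the second branchial arch and rhombomere 2, read 20.1 to 27.8. Its paralog Hoxb2 read 90.0 to 166 (median 120.9) and was above the highest control on all arrays. With the highest control of each array as a stricter background, 32 of 48 Hox probe sets (66.7%) stayed above on all arrays, against 48.4% of all probe sets. Hoxd1, Hoxa2, Hoxa11 and Hoxd11 then no longer counted (above on 23, 10, 27 and 13 arrays), so that paralogs 2 to 10 remained, with Hoxb2 the only paralog 2 gene.

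Among paralogs 3 and 4, genes of the hindbrain and the cervical cord, Hoxa3, Hoxb3, Hoxd3, Hoxa4, Hoxb4 and Hoxc4 each had a probe set above background on all arrays. Hoxb3 had medians of 147 and 88.5 in its pair of probe sets and Hoxd3 one of 126. Hoxc4 read 233 to 421 (median 294) and averaged 271 ± 17.9 (SD, n = 3) on arrays labelled conventional T and 293 ± 38.3 (n = 4) on natural Treg. Hoxb4, which also expands blood stem cells when it is overexpressed, had medians of 131 and 46.6. The probe sets disagreed for Hoxa3 and Hoxa4: of 4 for Hoxa3, with medians of 69.4, 47.4, 16.2 and 11.4, the last pair was not above background on all arrays, and neither was 1 of the Hoxa4 pair (53.6 and 10.8).

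Paralogs 5 to 8 mark the brachial and upper thoracic cord. Hoxa5, a gene of neck and upper trunk identity and of lung development, averaged 946 ± 102 (SD, n = 3) on conventional T, 1140 ± 144 (n = 4) on natural Treg, 1077 ± 189 (n = 4) on activated T and 1032 ± 216 (n = 5) on induced Treg. These values were of the brighter Hoxa5 probe set, with a mean percentile of 93.2. The other had a median of 134.8 and a mean percentile of 68.8. Hoxb5, which acts in the enteric nervous system, read 464 to 823 (median 600), and Hoxc5 had medians of 105, 94.5 and 56.8 in 3 probe sets. Hoxb6 read 320 to 683 (median 469), and Hoxc6, which sets forelimb motor neuron identity, had medians of 244, 208 and 70.5. Hoxa7 read 293 to 645 (median 465). Hoxb7 was the only measured gene from paralog 2 to 11 with no probe set above background on all arrays; it read 8.72 to 20.6 and exceeded background on 16.

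Hoxc8, needed by motor neurons of the lower brachial cord, is the example given in full. It read 885, 1182 and 993 on arrays labelled conventional T, 1050, 1118, 920 and 938 on natural Treg, 880 and 1049 on natural Foxp3delta, and 1062, 1052, 1057 and 1117 on activated T. It read 950, 1018 and 894 on activated natural Treg, 1003, 1099, 848, 1023 and 815 on induced Treg, and 1014, 1076 and 1003 on failed induced Treg. The 3 arrays of induced Foxp3delta read 1061, 1065 and 1096, and the arrays with IL-2 read 1005 and 872 (induced Treg) and 1030 and 997 (induced Foxp3delta). The lowest and the highest array, 815 and 1182, came from induced Treg and conventional T, and the ranges of these groups overlapped. Its coefficient of variation over all arrays was 8.79%. Hoxd8 had medians of 605 and 510 in its pair of probe sets.

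Paralogs 9 to 11 mark the thoracic and lumbar cord. Hoxa9, also a regulator of blood progenitors and leukaemia, read 1307, 902 and 1327 on conventional T, 1219, 1071, 1264 and 1064 on natural Treg, 1309, 1018, 791 and 1299 on activated T, and 1105, 1226, 1289, 1253 and 1194 on induced Treg. The spread within conventional T and within activated T was wider than the difference between their means, 1179 ± 240 (SD, n = 3) and 1104 ± 249 (n = 4). These values were of the brighter Hoxa9 probe set, whose mean percentile, 94.0, was the highest of the 48. The other had a median of 260 and a mean percentile of 78.1. Hoxb9, Hoxc9 and Hoxd9, which act with Hoxa9 in the thoracic skeleton and in motor column identity, had medians of 262, 152 and 482. Hoxc10 averaged 476 ± 84.4 (n = 3) on conventional T, 451 ± 60.3 (n = 4) on natural Treg and 403 ± 63.5 (n = 4) on activated T. Hoxa10, a gene of lumbar vertebrae and uterus, had a median of 82.9 in 1 probe set and 9.22, at background, in the other.

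**Figure D2:**
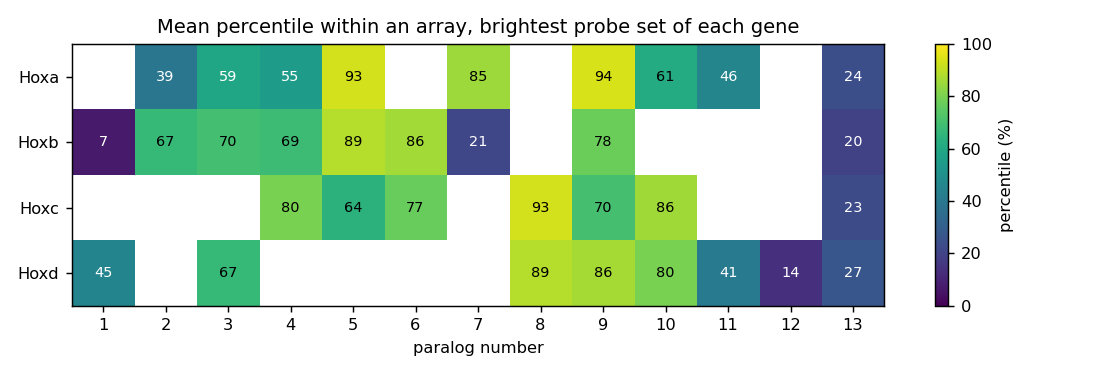
Mean percentile within an array (0 to 100%, over 31 arrays) of the brightest probe set of each Hox gene, with clusters in rows and paralog numbers in columns. White squares had no probe set with that single symbol or no such gene; the mean percentile reached 94.0 for Hoxa9, and the 5 genes at 12 and 13 lay between 13.7 and 26.6.

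Between 36 and 39 of the 40 probe sets of paralogs 2 to 11 exceeded the background of an array, and between 0 and 6 of the 6 of paralogs 12 and 13. The arrays with all 6 above background were induced Treg with IL-2 1 and induced Foxp3delta with IL-2 1. Genes with several probe sets agreed in being above background or not for 8 of 11.

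Transcripts that start inside the clusters gave a further reading. The antisense gene Hoxb5os read 130 to 220 (median 173), and 1 probe set of Hoxd3os1 read 227 to 400.2 (median 298), both above background on all arrays. A second probe set of Hoxd3os1 (median 9.36) exceeded background on 4 arrays, and a pair for Hoxa11os (medians 11.6 and 8.13) on 9 and 0.

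Genes of other body levels were read in the same way, by the brightest probe set of each gene, which favours detection. By probe set, 9 of 21 of the forebrain list and 4 of 13 of the midbrain list were above background. For the spinal cord list it was 22 of 30, against 65.4% of all probe sets. Over all probe sets of these lists the median percentiles were 29.4, 21.6 and 50.6, so the order of forebrain and midbrain depended on the choice of probe set. Of 12 forebrain genes, 4 were above background on all arrays (Bcl11b, Tcf7l2, Emx1 and Six3). The percentiles of the 12 ran from 1.45 to 69.9 with a median of 16.2. Tbr1, Emx2 and Otx2, which mark the cortex and the forebrain and midbrain, had medians of 7.22, 7.51 and 8.03 and exceeded background on no array. Of 9 genes of the midbrain and anterior hindbrain, 4 were above (Pax8, Egr2, Gbx2 and En2), with a median percentile of 29.5. En1, which marks the midbrain and hindbrain border, exceeded background on 2 arrays with a median of 9.99.

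Of 16 genes of spinal cord and hindbrain neurons, 15 were above background on all arrays by their brightest probe set, which favours detection. By probe set the count was 22 of 30, near the 65.4% of all probe sets, so it says little. The percentiles of the 16 ran from 30.8 to 96.8 with a median of 55. Glra1 and Slc6a5, the receptor and the neuronal transporter for glycine, had medians of 2035 and 1784, and Slc32a1, the vesicular transporter for GABA and glycine, 1336. Slc18a3, the vesicular transporter for acetylcholine, had a median of 387, and Prph, an intermediate filament of motor and sensory neurons, 426. Mnx1, a motor neuron factor, was the exception (median 16.6, above on 30 arrays). Markers of other Hox-expressing tissues were above background for 11 of 26 probe sets, against 65.4% of all. By the brightest probe set it was 10 of 16 genes, with a median percentile of 42.1 by gene. Those above were Kit and Cd34, used by blood stem cells and by other cells (medians 108 and 98.0), Myh7 (89.0), Acan (72.5), Acta1 (43.2), Ckm (31.1), Sftpc (28.3), Ttr (27.4), Col2a1 (25.0) and Aqp2 (19.8). Mpo, Krt14, Cdx2, Vil1, Alb and Umod were not above background on all arrays; Umod of the kidney read at most 9.13 and Alb of the liver had a median of 11.8.

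**Figure D3:**
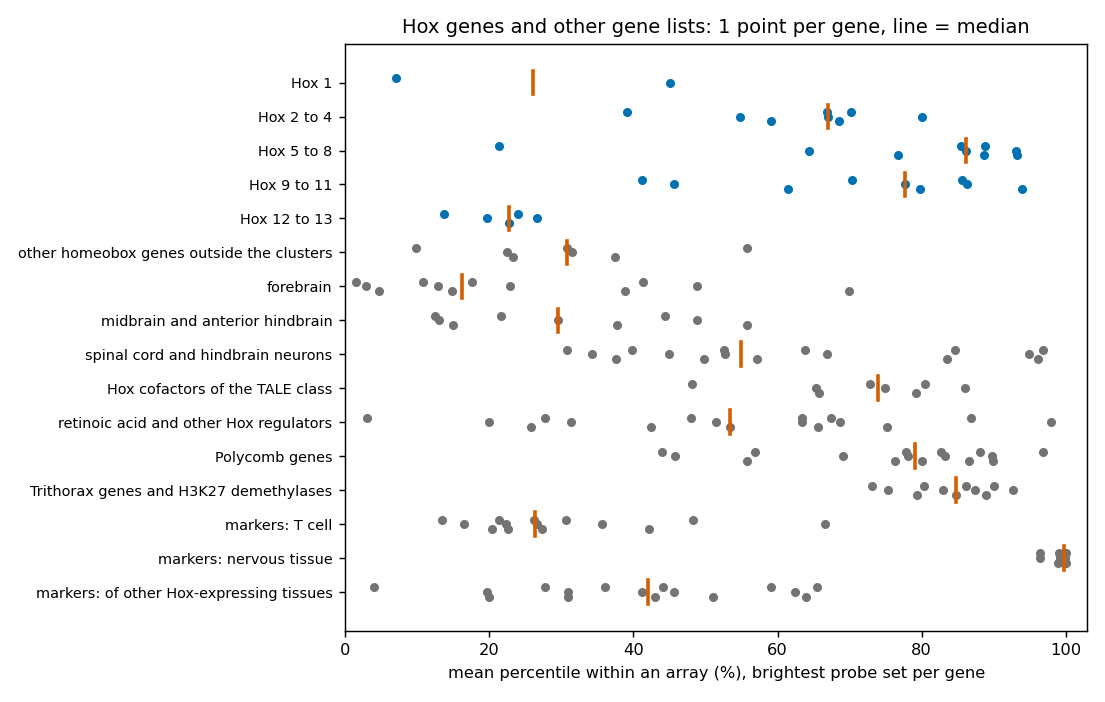
Mean percentile within an array (x axis, %, over 31 arrays) of the brightest probe set of each gene, 1 point per gene, for classes of Hox paralogs and for the other gene lists, with the median of each row as a line. Points of Hox 12 to 13 lie between 13.7 and 26.6, and the medians of the lists ran from 16.2 (forebrain) to 99.7 (nervous tissue).

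Partners and regulators of Hox genes were read by the brightest probe set of each gene, which favours detection, so their probe set counts are given beside the 65.4% of all probe sets. Those above background on all arrays were 19 of 20 for the TALE list, 15 of 23 for the retinoic acid list, 29 of 40 for Polycomb genes and 24 of 25 for the Trithorax list. Hox proteins bind DNA together with proteins of the TALE class (Pbx, Meis and Pknox), and all 8 measured genes of that class were above background on all arrays, among them Pbx3 (median 478), Meis2 (306) and Pbx2 (285). Retinoic acid switches on the first genes of the clusters, and 12 of 17 genes of that pathway and of other Hox regulators were above background, among them Aldh1a1, which makes retinoic acid (median 2882). Of the Cdx factors, which activate central Hox genes in the embryo, Cdx1, Cdx2 and Cdx4 had medians of 12.2, 14.9 and 7.81 and exceeded background on 14, 22 and 0 arrays. Polycomb genes, which keep Hox genes silent, were above background for 16 of 16 genes, and Trithorax genes and demethylases, which oppose them, for 11 of 11. Evx2, a homeobox gene beside Hoxd13, had a median of 12.9 and exceeded background on 22 arrays, and of the other 6 homeobox genes outside the clusters only Meox1 was above it on all.

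Differences between the label groups were tested with limma over all 45037 probe sets on log2(intensity + 16), a scale on which changes of dim probe sets are understated. In an F test over the 10 groups, 3291 probe sets (7.31%) passed at an adjusted p under 0.05. Of the Hox probe sets 0 of 48 passed, and 5 had an unadjusted p under 0.05. The share of all probe sets with such a p is not given, so the 5 are a description only. Group means of a Hox probe set spanned between 0.04 and 1.05 on the log2 scale, with a median of 0.29. In bulk RNA of this kind, fewer cells of a type and less RNA per cell cannot be told apart. The Hox count depended on scaling: 8 passed on values as deposited and 9 after division by array medians. The counts over all probe sets, given with the processing below, rose there too, so these 8 and 9 are not particular to Hox genes. Without induced Treg with IL-2 1 or 2, 2075 or 2055 of all probe sets passed, and without activated natural Treg 2 the dim Hoxa4 probe set did (adjusted p = 0.0290 in limma).

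The smallest p in that test belonged to 1 of 3 probe sets of Hoxc6 (adjusted p = 0.0652 in limma). It read 60, 66.4 and 61.3 on conventional T, 70.5, 67.3, 65.7 and 56.2 on natural Treg, 85.4 and 116 on natural Foxp3delta, and 78.0, 101, 76.6 and 96.5 on activated T. It read 133, 96.8 and 88.8 on activated natural Treg, 58.8, 68.4, 57.2, 75.4 and 107 on induced Treg, and 56.1, 54.3 and 104 on failed induced Treg. Induced Foxp3delta read 78.2, 91.9 and 81.0, and the arrays with IL-2 57.3, 57.6, 62.2 and 57.8. Arrays labelled activated T, activated natural Treg, natural Foxp3delta and induced Foxp3delta were high, and within induced Treg and failed induced Treg 1 array each stood high. Without failed induced Treg 3 the adjusted p was 0.00927, and without induced Treg 5 it was 0.0225.

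The arrays also differed in technical readings. Clustering of the arrays on hybridisation controls, median and 99th percentile gave 3 array sets of 15, 10 and 6 arrays. Conventional T, natural Treg and both IL-2 groups lay wholly in set 1, activated natural Treg in set 2, and the arrays of activated T in sets 2 and 3. This Hoxc6 probe set read 54.3 to 70.5 in set 1, 76.6 to 133 in set 2 and 57.2 to 91.9 in set 3, so sets 1 and 2 did not overlap. With the array set as a block its adjusted p was 0.943, and 299 probe sets (0.664%) and 0 of 48 Hox probe sets passed. The other probe sets of Hoxc6 read 157 to 248 and 159 to 334. Hoxc8 had medians of 1005, 1033 and 1042 in the 3 sets.

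**Figure D4:**
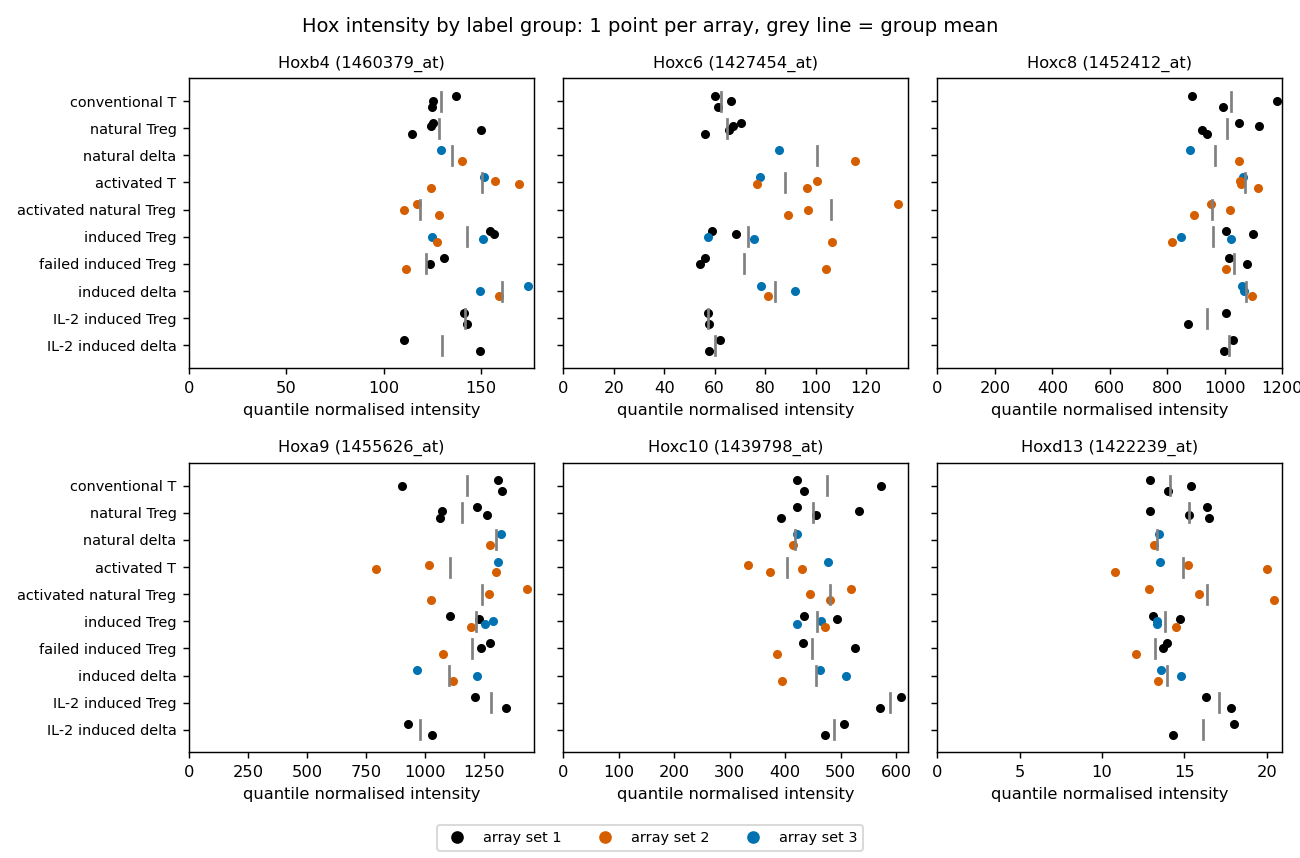
Quantile normalised intensity (x axis, starting at 0) of 6 Hox probe sets by label group, 1 point per array, coloured by array set, with a grey line at the group mean. Hoxc6 shows set 1 below set 2 without overlap (54.3 to 70.5 against 76.6 to 133), Hoxc8 lies between 815 and 1182 in all groups, and Hoxd13 stays between 10.8 and 20.5.

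Activated T against conventional T asks, by the labels only, what stimulation through the T cell receptor does. Of all probe sets 672 (1.49%) were higher and 728 (1.62%) lower on arrays labelled activated T, 3.11% together, and of the Hox probe sets 0 of 48 passed, with 6 at an unadjusted p under 0.05, against 18.7% of all. The median Hox difference was 0.02 against 0.00 over all probe sets, and single differences ran from -0.28 to 0.43 on the log2 scale. The 95% intervals reached from -0.72 (Hoxb3) to 0.81 (Hoxd3), so changes of up to 1.75-fold on this scale lay within them. The groups did not overlap for 8 of 48 Hox probe sets, against 17.3% of all. Every array of conventional T was in set 1 and none of activated T was, so no value within a set exists. With the array set as a block, which is estimated through groups that span sets, 31 of all probe sets and 0 Hox probe sets passed in limma.

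Hoxc13 and Hoxc4 had the smallest p in this comparison. Hoxc4 read 289, 421, 363 and 339 on activated T and 285, 277 and 251 on conventional T, a difference of 0.35 (SE 0.12, adjusted p = 0.0925 in limma). All 4 arrays of activated T were above those of conventional T, whereas on values as deposited the difference was -0.063. Hoxc13 read 12, 15.8, 19.3 and 13.9 on activated T and 10.9, 11.8 and 11.7 on conventional T, a difference of 0.18 (SE 0.06, adjusted p = 0.0884 in limma) at the level of background. Without activated T 1, the adjusted p was 0.0308 for Hoxc4 and 0.0218 for Hoxc13. Leaving out that array raised the count over all probe sets from 1400 to 2375. Without conventional T 1, 2 or 3 the count was 264, 225 or 329, and without activated T 2 or 3 it was 656 or 685, with 0 Hox probe sets in each. Hoxd3 differed by 0.43 (SE 0.18, adjusted p = 0.189 in limma), with overlap.

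**Figure D5:**
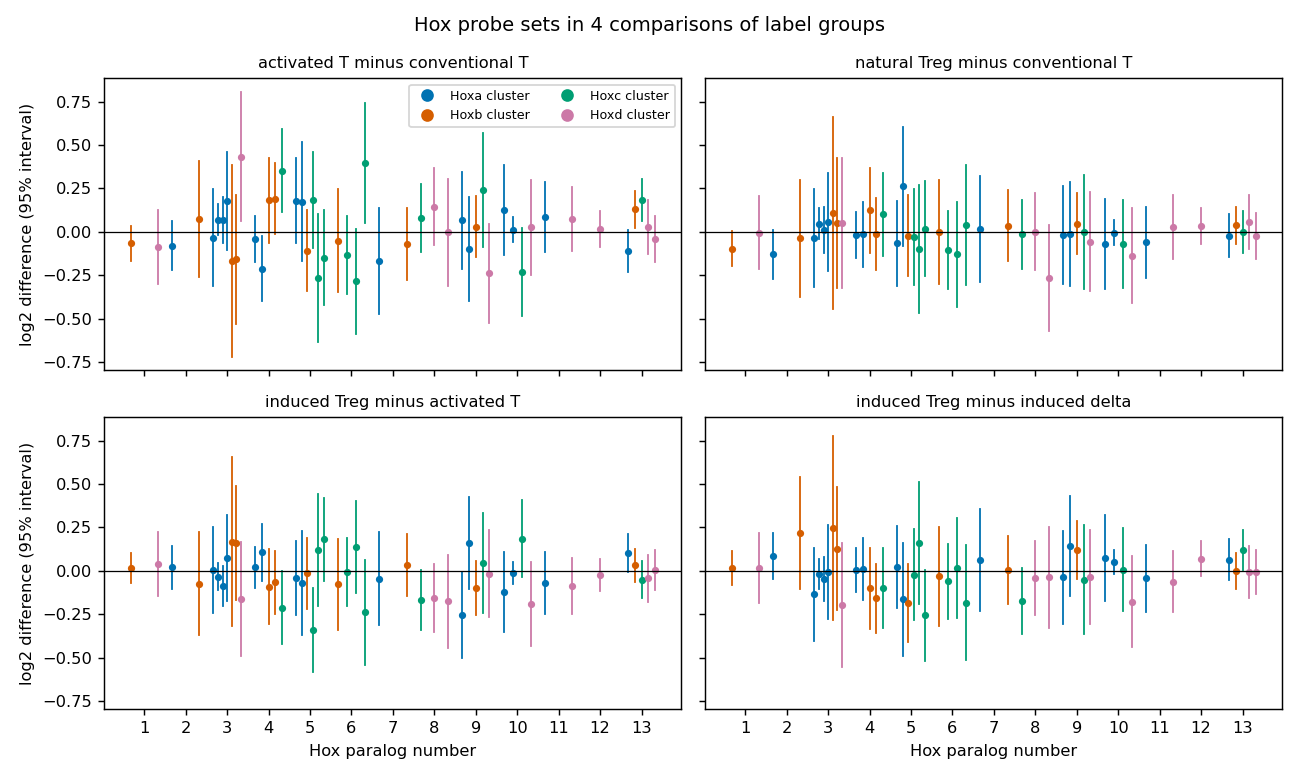
Difference of each of the 48 Hox probe sets (y axis, log2 of intensity + 16, with 95% interval from limma) by paralog number in 4 comparisons of label groups, coloured by cluster. Points lie on both sides of 0 in each panel, from -0.34 to 0.43 over the 4, and 0 of 48 passed at an adjusted p under 0.05 in any.

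Natural Treg against conventional T asks, by the labels only, what sets Treg of the animal apart. Over all probe sets 0 passed in limma (0%), with 2.41% at an unadjusted p under 0.05, and of the Hox probe sets 0 passed and 0 reached an unadjusted p under 0.05. Other settings called 0 to 2 of all probe sets and 0 Hox probe sets. The Hox differences had a median of -0.01, and their intervals reached from -0.57 (Hoxd8) to 0.66 (Hoxb3). The groups did not overlap for 2 probe sets (6.15% of all), the brighter one of Hoxa5 and that of Hoxb1. The brighter Hoxa5 probe set read 1024, 1350, 1089 and 1097 on natural Treg and 830, 1022 and 987 on conventional T. The other Hoxa5 probe set overlapped, at 134, 107, 130 and 119 on natural Treg and 122, 121 and 144 on conventional T. There the highest array was of conventional T and the lowest of natural Treg. Hoxb1 lay at background in both groups. All arrays of this pair of groups lay in set 1.

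Induced Treg against activated T asks, by the labels only, what TGF-beta and Foxp3 induction add to stimulation. Over all probe sets 13 (0.0289%) were higher and 6 (0.0133%) lower in limma, 0.0422% together, and 0 of 48 Hox probe sets passed, with 3 at an unadjusted p under 0.05, against 9.84% of all. Hoxc5 came closest: 1 of its 3 probe sets read 67.0, 84.4, 118, 85.8 and 99.9 on induced Treg and 95.2, 117, 132 and 129 on activated T. The difference was -0.34 (SE 0.12, adjusted p = 0.368 in limma), and the groups overlapped. On values as deposited the difference was 0.16. The other Hoxc5 probe sets went the opposite way, with higher averages on induced Treg. The readings of 67.0 and 84.4 came from array set 1, which held no array of activated T. Without activated T 1, 246 of all probe sets passed, and without activated T 2 or 3 it was 4 or 0. Without induced Treg 1, 2 or 4 it was 1, 4 or 0, and 0 Hox probe sets passed in each case. The groups did not overlap for 1 Hox probe set (1.96% of all), that of Hoxa13 at background. This comparison shares its activated T arrays with the one against conventional T.

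Induced Treg against induced Foxp3delta asks, by the labels only, what intact Foxp3 adds. In limma 0 of all probe sets passed (0%), 3.18% had an unadjusted p under 0.05, and of the Hox probe sets 0 passed and 1 reached an unadjusted p under 0.05. Leaving out single arrays called 0 to 1 of all probe sets and 0 Hox probe sets. The Hox differences had a median of -0.01 and intervals from -0.55 (Hoxd3) to 0.78 (Hoxb3). A Hoxc5 probe set was the 1 without overlap (2.40% of all), with a difference of -0.26.

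The lists of partners and regulators were read in the same F test. Polycomb genes had 6 of 40 probe sets past the threshold of 0.05 in limma, against 7.31% of all probe sets, led by Bmi1 (adjusted p = 0.00179), Eed (0.0115), Ezh2 (0.0130) and Suz12 (0.0135). On arrays labelled activated T against conventional T, which differ in array set, Bmi1 was higher by 0.43 (SE 0.08, adjusted p = 0.0074 in limma) in 1 of 2 probe sets. Eed was higher by 0.21 (SE 0.06, adjusted p = 0.0401 in limma), also in 1 of 2. A probe set of Jarid2, an accessory subunit of Polycomb complex PRC2, was lower in the same comparison (-0.30, SE 0.07, adjusted p = 0.0296 in limma). Of the Trithorax list 2 of 25 passed (Men1 and Wdr5), of the retinoic acid list 2 of 23 (Crabp2 and Aldh1a1), of the midbrain list 1 of 13 (Egr2), and of the TALE, forebrain, spinal cord and other homeobox lists 0 of 20, 0 of 21, 0 of 30 and 0 of 9. Of the T cell list 4 of 23 passed (Il2ra with 2 probe sets, Cd3e and Cd3g), of the nervous tissue list 1 of 40 (Mbp) and of the other tissues 1 of 26 (Ttr). With the array set as a block, 0 probe sets passed in each of these lists.

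Different probe sets of 1 gene were compared as a check on the variation between arrays, in 12 pairs from 8 genes. Over 31 arrays Pearson's r ran from -0.58 to 0.23 with a median of -0.19, and 3 pairs had an adjusted permutation p under 0.05, all of them negative. The strongest was 1 of the pairs among the 3 Hoxc6 probe sets (r = -0.58, permutation p = 0.00049, adjusted 0.00588). Its Spearman's rho was -0.50 (permutation p = 0.00503, adjusted 0.0604). Values of the other Hoxc6 pairs are not given here. Without the 2 arrays farthest from the median, r of this strongest pair was -0.47. Within array sets 1, 2 and 3 this Hoxc6 pair had r of -0.09, -0.43 and 0.57, and 0 of 36 within-set tests had an adjusted p under 0.05. The nearest was the Hoxb3 pair in the 6 arrays of set 3 (r = 0.98, permutation p = 0.00139, adjusted 0.050), which ran the other way in set 2 (r = -0.83). With 6 arrays no smaller permutation p is possible, so a single pair of set 3 could not have passed by itself. On values as deposited, whose overall level differs between arrays, 11 of 12 pairs passed with positive r.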

How the data were processed

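Total RNA, extracted with Trizol and spin columns and labelled with biotin per the labels' protocols, was measured on 31 arrays. The authors deposited probe set intensities on a linear scale, and the sources used here do not give how probes were summarised, background corrected and scaled. Deposited array medians ran from 22.2 to 55.4, so intensities were quantile normalised between arrays and tested as log2(intensity + 16) in R 4.3.3 by limma's lmFit and eBayes (version 3.58.1), with 1 mean per label group and an estimate of spread shared by all 31 arrays, with Benjamini-Hochberg adjustment over 45037 probe sets. Correlations between arrays were 0.990 to 0.997 within groups, and no array repeated another.

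Symbols came from the platform annotation: 34958 probe sets had 1 symbol, 932 several and 9211 none listed. Promoter windows came from RefSeq by symbol. In simulated data for activated T against conventional T, 197 of 200 changes of 2-fold were recovered (98.5%) with 9 false calls. These changes were 2-fold on the scale of the tests. For a dim probe set that is more than 2-fold in intensity. The real arrays of these groups also differ in array set, with conventional T wholly in set 1 and activated T outside it. The recovered share therefore does not measure what the real comparison could detect. The members, lists, tests and array sets were chosen with earlier results of these data known. Named were every Hox gene above background, the Hox probe sets with the smallest p or nearest to background, and up to 4 members of each list. Alternatives changed scaling, pseudocount, filter, probe sets, blocks, variance trend, background and arrays used. A planned correlation with a gene outside the clusters is not reported here. Python 3.11.15 was used for all other steps.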

Additional observations from a re-analysis of the deposited data

Results flagged for a closer look

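Within label groups of 4 or 5 arrays, 108 sets of values of Hox probe sets above background were searched for a single array far from the rest, and 6 were found. Chance alone gives about 1 in 20. On arrays labelled activated T, Hoxc9 read 202 on array 1 against 152 to 155 on the others, a probe set of Hoxa9 read 381 on array 3 against 259 to 273, and Hoxc8 read 1117 on array 4 against 1052 to 1062. On arrays labelled natural Treg, Hoxd3 read 153 on array 1 against 91.3 to 99.5, and Hoxa2 read 24.8 on array 2 against 20.6 to 21.3. On induced Treg, a probe set of Hoxc5 read 49.3 on array 2 against 58.7 to 60.6. These were 6 different arrays.

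Outside the rule that chose the Hox genes, 2 antisense probe sets were above background on all 31 arrays: Hoxb5os with a median of 173 (130 to 220) and Hoxd3os1 with a median of 298 (227 to 400.2).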

How the results depend on the processing

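Of the Hox probe sets, 32 were above the highest control on all arrays. Under the other levels and array counts tried, 35 to 41 were above background, and 36 to 37 without single arrays. The 41 came from asking for fewer arrays, which let in probe sets of Hoxd13, Hoxa13 and Hoxc13 (above on 26, 24 and 19). The 0 of 6 for paralogs 12 and 13 therefore holds at the chosen background only when nearly all arrays are asked for. On all arrays, 23 genes had all their probe sets above background. On values as deposited the F test called 12940 probe sets and 8 Hox, activated T against conventional T 8388 and 5 Hox (all lower), and induced Treg against activated T 24628 and 23 Hox (all higher), where the median of all probe sets shifted by -0.24 and 0.32. There Hoxc4 turned to -0.063 in the former and Hoxc5 to 0.16 in the latter. With array medians the F test called 9254 and 9 Hox, and activated T against conventional T 10328 and 8 Hox (all higher), at a shift of 0.13. The array set as a block left 299, 31, 2 and 7 calls in the F test, activated T against conventional T, natural Treg against conventional T, and induced Treg against activated T. With 1 probe set per gene, and so fewer tested, these were 1742, 761, 1 and 11. A pseudocount of 64 gave 1 and 9 in the last pair, the filter on low values 1 and an intensity trend 2 in natural Treg against conventional T. The filter called 1 Hox probe set in the F test (Hoxc6). Single arrays left out gave 2055 to 4696 calls in the F test (0 to 1 Hox), 225 to 2375 in activated T against conventional T (0 to 2 Hox), 0 to 2 in natural Treg against conventional T, 0 to 246 in induced Treg against activated T and 0 to 1 in induced Treg against induced Foxp3delta. Same-gene pairs past the threshold numbered 0 within sets 1, 2 and 3 each, and 11 as deposited. In set 3 the number of arrays kept a single pair from passing by itself. Causes were not tested.

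Replicate numbers did not pair the arrays: deviations of same-numbered arrays correlated at -0.28 to 0.35 (median 0.00), and 11 of 31 arrays were closest to their own number. With the replicate block the F test called 3689 probe sets and 1 Hox (Hoxc6, adjusted p = 0.0397 in limma), activated T against conventional T 1380 and induced Treg against activated T 27.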
